A study of Mus musculus with 5 samples.

Results

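The 46 genes described here encode lysosomal proteins and the machinery of autophagy. They were chosen by symbol, with earlier results of these data known, so shares set against all genes below are descriptive. All 46 were found among the 29495 genes of the count tables. Of these, 20 belong to the lysosome (11 hydrolases, 2 precursors of lysosomal cofactors, 3 membrane proteins and 4 genes of the proton pump), 21 to the autophagy machinery, and 5 to the transcription factors and the folliculin complex that control both. Gene expression was measured by sequencing polyadenylated RNA of mouse glioma cells of genotype p53-/-;NF1-/-;tdTomato+/-, from a tumor model of mixed CD-1 and C57BL/6 background. All of these cells had shared a dish with neurons from the olfactory bulbs of C57BL/6 pups, and the tdTomato signal was used to sort them out. There were 2 libraries without stimulation (control replicates 1 and 2) and 3 after overnight incubation with 20 ng/mL insulin-like growth factor 1 (IGF-1 replicates 3, 4 and 5). Insulin and serum in the plating medium, and serum with the supplement B27 afterwards, were common to both groups. All 5 titles carry the same tumor code, and nothing in the labels says whether libraries came from separate cultures, so the tests are set against a library-to-library spread that may be purely technical.

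The lysosome is the acidic compartment in which hydrolases break down proteins, lipids and glycans, and a proton pump, the V-ATPase, keeps it acidic. In autophagy, a membrane grows around cytoplasm, is coated with lipid-linked ATG8 proteins, and is delivered to the lysosome. Growth factor and nutrient signals acting through mTORC1 hold autophagy back at the ULK1 kinase and keep TFEB and TFE3, the transcription factors of lysosomal genes, out of the nucleus. FOXO factors, which insulin-like signals also restrain, are known to activate several autophagy genes.

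Libraries held 16944315 to 20144181 counts. IGF-1 replicate 5 stood apart: over genes at or above 10 CPM (read counts relative to the library total, scaled by edgeR's TMM factors), its log2 difference from either other IGF-1 library had an SD of 0.22. The corresponding SD was 0.11 for replicates 3 and 4 and 0.12 for the controls. The 6 markers of oligodendrocyte progenitors and glioma summed to 3577 to 3780 CPM in the other 4 libraries and to 4237 in replicate 5. There Cspg4 was at 760 CPM (474 to 572 in the others), Pdgfra at 629 (510 to 531) and Sox10 at 946 (781 to 836). Olig2 (296, others 246 to 282) and Ptprz1 (896, others 855 to 893) were slightly higher, and Olig1 (710, others 679 to 719) was not. The part of this difference in the results was not tested. Markers of microglia and macrophages, cells rich in lysosomes, summed to 6.25 to 8.14 CPM over the 11 found, and 10 of them averaged under 1 CPM. Neuron markers (10 found, 7 under 1 CPM) summed to 23.4 to 30.9 CPM and endothelial markers (4 found, all under 1 CPM) to 0.832 to 1.59. The neuron marker Syt1 was at 11.4 CPM in replicate 5 and at 4.67 to 5.56 CPM in the other libraries. Nefl, the most abundant neuron marker, was at 16.0 CPM in replicate 5 and at 14.6 to 20.0 CPM in the others. Snap25 (1.03 CPM) and Gad2 (0.734 CPM) were also highest in replicate 5, while Stmn2 (0.0489 CPM) and Slc17a7 (0.147 CPM) were lowest there. In bulk RNA, fewer cells of a type and less RNA per cell cannot be told apart.

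With all 5 libraries, Atg14 fell after IGF-1 and was the 1 gene of the 46 that passed the test. None of the 20 lysosomal genes passed. Calls were made with edgeR's quasi-likelihood test at a Benjamini-Hochberg adjusted p under 0.05 over the 15919 genes tested, which included all 46. By that rule 0 of the 46 were higher and 1 was lower, against 0.685% higher and 0.339% lower of all genes. At an unadjusted p under 0.05, 1 was higher and 9 were lower, against 7.1% and 5.57% of all genes. DESeq2 called 0 higher and 1 lower, against 1.6% and 0.747% of the 11907 genes that it gave an adjusted p. The median log2 change was -0.04 over the 46 genes and -0.0076 over all genes. It was 0.02 for the lysosomal genes, with 12 of 20 above 0, and -0.07 for the autophagy machinery, with 17 of 21 below 0. Of all genes tested 51.7% were below 0, and of the 131 other pathway genes described further down 61.1%.

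Without IGF-1 replicate 5, 10 of the 46 genes were lower and 1 was higher by the same test. That is 21.7% lower, where the background was 3.65% of all genes, and 2.17% higher, where it was 5.49%. The background was not matched to the 46 genes for level or precision. With all libraries, the median SE was 0.08 over the 46 genes and 0.12 over all genes tested. The lowest mean level was 14.7 CPM among the 46 and 0.279 CPM among all genes tested. The common coefficient of variation between libraries of a group, as fitted by edgeR, was 0.077 with all libraries and 0.032 without replicate 5. Log2 changes of called genes moved both ways without it, from -0.18 to -0.14 for Sqstm1 and from -0.07 to -0.17 for Map1lc3b. Of the 10 lower genes 8 belong to the autophagy machinery and 2, Flcn and Fnip1, to the folliculin complex. Among the 20 lysosomal genes 0 were called, with 1 higher and 3 lower unadjusted, where 11.6% and 9.64% of all genes stood. The lysosomal median turned to -0.04 without replicate 5, with 6 of 20 above 0 and 14 below. Of the autophagy machinery 17 of 21 genes were again below 0 (median -0.09), against 8018 of 15573 over all genes. DESeq2 without that library called 0 of the 20 lysosomal genes (0 unadjusted), and 6 lower and 0 higher of the 46. The background was 1.76% and 3.6% of the 10742 genes that it gave an adjusted p. The 6 were Atg14, Fnip1, Gabarapl1, Map1lc3b, Nbr1 and Wipi1. Replicate 5 was kept in every value below unless it is said to be left out.

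**Figure D1:**
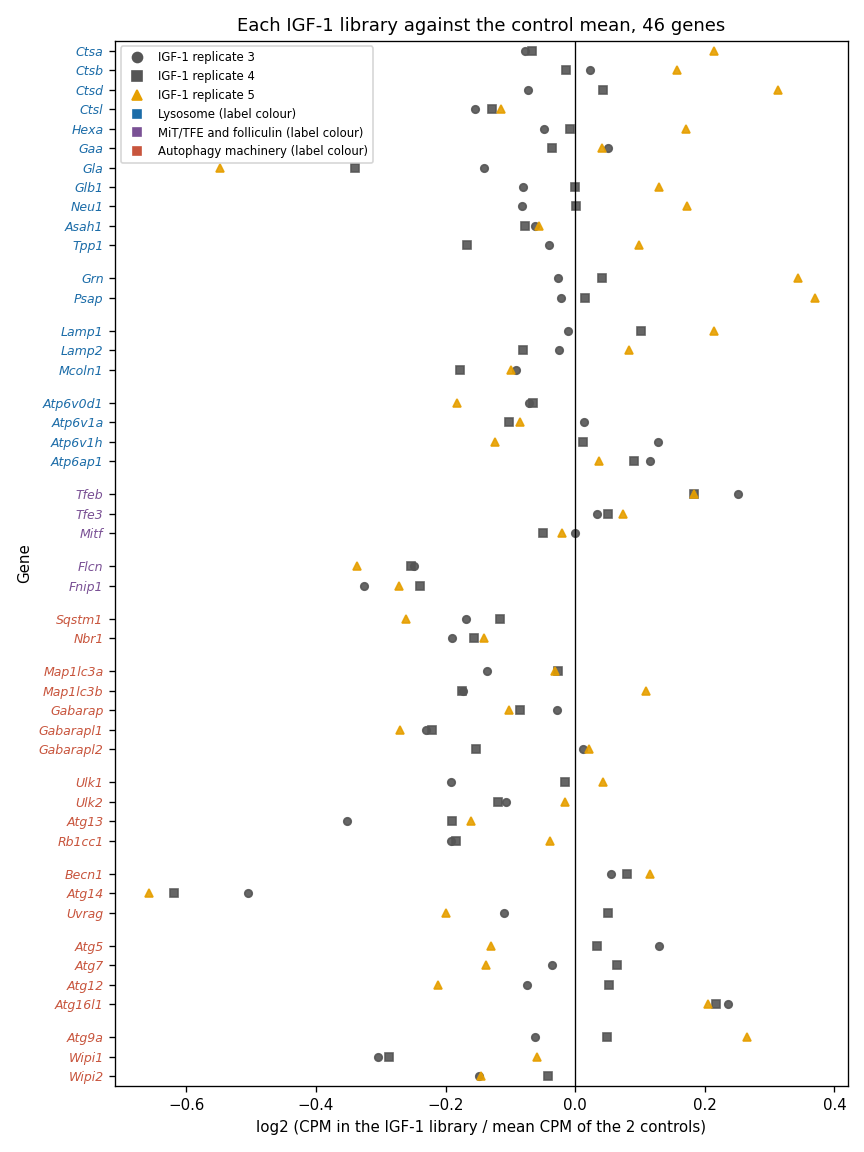
Log2 ratio of each IGF-1 library to the mean CPM of the 2 controls for the 46 genes, grouped by role. Atg14 lies furthest to the left in replicates 3, 4 and 5, Flcn, Fnip1 and Gabarapl1 lie left of 0 in each, and replicate 5 lies to the right of replicates 3 and 4 for Psap, Grn and Ctsd.

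Atg14 encodes the subunit that directs the class III PI3-kinase VPS34 to sites where autophagosomes form. It was read at 20.0 and 19.9 CPM in the controls and at 14.0, 12.97 and 12.6 CPM in IGF-1 replicates 3, 4 and 5. Every IGF-1 library lay below both controls. The controls had 346 and 337 reads of this gene, and the IGF-1 libraries 255, 245 and 258. The mean went from 19.9 ± 0.0561 CPM (SD, n = 2) to 13.2 ± 0.741 (SD, n = 3), and Atg14 fell by 0.59 on the log2 scale (SE 0.11, edgeR adjusted p = 0.034). DESeq2 gave an adjusted p of 0.00794, and edgeR without replicate 5 a log2 change of -0.56 (adjusted p = 1.22e-04). Leaving out control replicate 1 or 2 ended the call (adjusted p = 0.469 and 0.466), as did leaving out IGF-1 replicate 3 or 4 (adjusted p = 0.0939 and 0.124), with log2 changes of -0.64 to -0.58 over these 4 fits. In the same order these fits called 0.012%, 0.012%, 0.243% and 0.34% of all genes in either direction. An annotated antisense gene, Gm49004, covers 5.53% of the exon bases of Atg14 and had 0 to 1 counts per library.

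Of the 46 genes, Becn1 and Uvrag also encode subunits of class III PI3-kinase complexes, and neither passed in any fit. Becn1, which encodes the Beclin 1 scaffold shared by these complexes, was read at 183 CPM in each control and at 191, 194 and 199 CPM with IGF-1. Its IGF-1 libraries all lay above the controls, but the log2 difference of 0.08 (SE 0.06) did not pass (edgeR adjusted p = 0.597). Cntd1, on the opposite strand, overlaps 43.9% of the exon bases of Becn1 and had 24 to 52 counts per library. Uvrag, whose protein replaces ATG14 in the complex of endosomes, was at a log2 difference of -0.08 with overlapping groups.

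The promoter sequences of Atg14 and Fnip1, which encodes folliculin-interacting protein 1, are shown beside those of Lamp1 and Ctsd. The first 2 belong to genes called lower (Fnip1 without replicate 5), the others to lysosomal genes that were not called. All come from RefSeq on build GRCm38.p6, while the counts were made on GRCm39, and each runs 5′ to 3′ from 250 bases before the annotated start to 10 after it. Capitals mark the core of the CLEAR element, the site of TFEB, TFE3 and MITF in lysosomal promoters, searched as TCACGTG on both strands.
Atg14 (chr14:47568425-47568684, minus strand): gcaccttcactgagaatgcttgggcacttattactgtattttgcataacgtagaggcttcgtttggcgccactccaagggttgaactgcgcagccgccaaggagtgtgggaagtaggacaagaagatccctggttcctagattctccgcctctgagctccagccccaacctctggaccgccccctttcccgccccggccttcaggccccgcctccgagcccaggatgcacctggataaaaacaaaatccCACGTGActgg
Fnip1 (chr11:54437929-54438188, plus strand): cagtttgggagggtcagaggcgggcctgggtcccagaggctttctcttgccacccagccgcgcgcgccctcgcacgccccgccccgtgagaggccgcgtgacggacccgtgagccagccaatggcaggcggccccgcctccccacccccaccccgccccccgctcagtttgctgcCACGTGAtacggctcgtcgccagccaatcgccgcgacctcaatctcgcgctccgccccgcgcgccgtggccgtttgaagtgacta
Lamp1 (chr8:13158911-13159170, plus strand): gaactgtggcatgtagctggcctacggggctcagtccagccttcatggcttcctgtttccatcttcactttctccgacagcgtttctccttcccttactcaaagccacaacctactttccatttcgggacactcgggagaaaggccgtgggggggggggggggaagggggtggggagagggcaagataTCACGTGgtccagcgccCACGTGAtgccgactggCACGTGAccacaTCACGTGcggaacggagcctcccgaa
Ctsd (chr7:142387818-142388077, minus strand): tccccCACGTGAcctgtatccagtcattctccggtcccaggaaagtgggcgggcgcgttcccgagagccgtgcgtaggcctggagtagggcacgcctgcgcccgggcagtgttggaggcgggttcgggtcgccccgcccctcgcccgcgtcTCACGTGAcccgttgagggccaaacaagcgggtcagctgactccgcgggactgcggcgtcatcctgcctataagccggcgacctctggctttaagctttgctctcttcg
Lamp1 held the core at 4 sites, Ctsd at 2, and Atg14 and Fnip1 at 1 each. In Atg14 the match spans the annotated start itself.

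Promoters of 300 bases (250 before and 50 after the start) were found for 38 of the 46 genes. The CLEAR core stood in 12 of these 38 genes, or 31.6%, against 4.29% of 27025 genes and 3.77% of 32851 promoters. By role it stood in 9 of 17 lysosomal genes (Ctsa, Ctsd, Gaa, Gla, Glb1, Lamp1, Mcoln1, Atp6v0d1 and Atp6v1a), in 2 of 16 autophagy genes (Atg14 and Atg7) and in 1 of 5 genes of the factors and the folliculin complex (Fnip1). The shorter E-box CACGTG, which is contained in the core, was found in 14 of the 38, against 8.09% of genes and 7.15% of promoters. The FOXO element TGTTTAC, on either strand, was found in 0 of the 38, against 4.05% of genes and 3.65% of promoters. At shares this low, 0 of 38 differs little from the background. Of the 11 genes called without replicate 5, 9 had a promoter in the table, and Atg14 and Fnip1 held the CLEAR core. These are matches of letters in a short window, and binding was not measured.

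**Figure D2:**
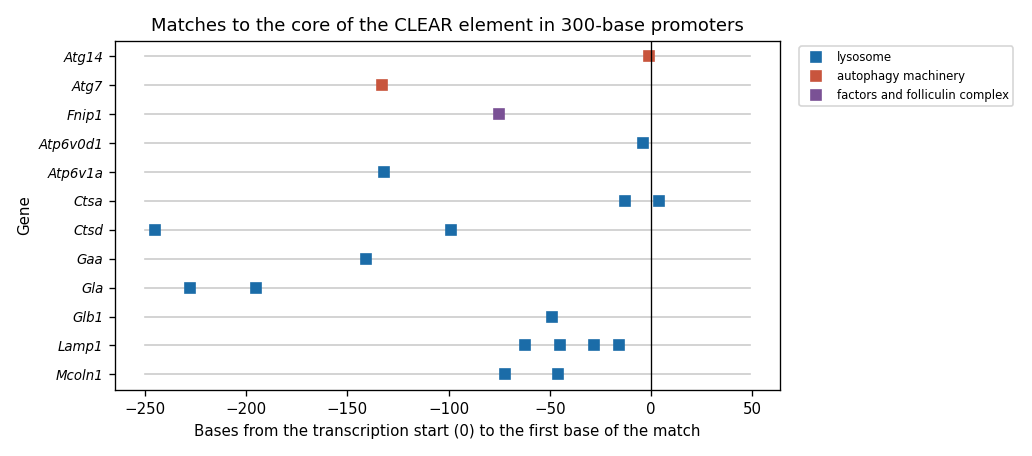
Position of each match to the CLEAR core in the 12 promoters that held one, in bases from the annotated start, with the grey lines showing the 300 bases searched. The matches of Lamp1 lie from -62 to -16, and those of Gla lie at -228 and -195.

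Flcn and Fnip1 encode folliculin and its partner, which act on the RAG GTPases at the lysosome and thereby on TFEB and TFE3. Fnip1 was read at 91.5 and 91.6 CPM in the controls and at 73.0, 77.6 and 75.9 CPM with IGF-1. All 3 IGF-1 libraries were below the controls, by a log2 difference of -0.28 (SE 0.06) that did not pass with all libraries (edgeR adjusted p = 0.0788). It passed without replicate 5 (log2 -0.28, adjusted p = 1.32e-04), and with all libraries when genes of low counts were not filtered out, where the background was 1.31% higher and 0.749% lower. Flcn was read at 48.4 and 54.1 CPM in the controls and 43.1, 42.9 and 40.6 CPM with IGF-1. The groups did not overlap, and replicate 5 was the lowest library. Its log2 difference was -0.28 (SE 0.08, edgeR adjusted p = 0.17), and it passed without replicate 5 by edgeR (log2 -0.25, adjusted p = 0.0144) but not by DESeq2 (adjusted p = 0.136).

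The 3 MiT/TFE transcription factor genes did not pass in any fit. Tfeb was read at 17.1 and 17.9 CPM in the controls and at 20.9, 19.9 and 19.9 CPM with IGF-1. The IGF-1 libraries were all above the controls, with a log2 difference of 0.21 (SE 0.10, edgeR adjusted p = 0.426). Tfe3 was read at 63.2 and 57.5 CPM in the controls and at 61.8, 62.5 and 63.6 CPM with IGF-1 (log2 0.05, SE 0.07). Mitf stood at 18.9 and 17.1 CPM without and 18.0, 17.4 and 17.8 CPM with IGF-1 (log2 -0.02, SE 0.10). For Tfe3 and Mitf the groups overlapped.

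The selective autophagy receptors bind ubiquitin-tagged cargo and ATG8 proteins at once. Sqstm1, the gene of p62, was read at 318 and 326 CPM in the controls and at 286, 297 and 268 CPM with IGF-1. Nbr1, its relative, was read at 271 and 272 CPM in the controls and at 238, 244 and 246 CPM with IGF-1. For both genes every IGF-1 library was below both controls. Neither passed with all libraries (Sqstm1 log2 -0.18, SE 0.07, edgeR adjusted p = 0.281; Nbr1 log2 -0.16, SE 0.06, adjusted p = 0.28). Both passed by edgeR without replicate 5, at -0.14 (adjusted p = 0.00842) and -0.17 (adjusted p = 0.00132). DESeq2 without that library called Nbr1 (adjusted p = 0.0115) but not Sqstm1 (adjusted p = 0.0514). Mrnip, a neighbour on the opposite strand, overlaps 17.3% of the exon bases of Sqstm1 and had 65 to 118 counts per library.

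All 5 ATG8 genes had log2 differences below 0, from -0.24 to -0.04, and none passed with all libraries. These signs rest in part on single libraries, since 3 of the 5 genes stood above 0 without control replicate 2 and 1 without IGF-1 replicate 4. Gabarapl1, a GABARAP-type ATG8 gene known as a FOXO target, was read at 133 and 126 CPM in the controls and at 110.2, 110.9 and 107 CPM with IGF-1. The IGF-1 libraries lay close together, below both controls. Its log2 difference was -0.24 (SE 0.06, edgeR adjusted p = 0.119), and it passed without replicate 5 (-0.23, adjusted p = 5.6e-04). A transcript on the opposite strand, 1700101I11Rik, overlaps 28.3% of its exon bases and had 3 to 10 counts per library. Map1lc3b, the gene of the common autophagosome marker LC3B, was read at 214 and 213 CPM in the controls and at 189, 189 and 230.2 CPM in IGF-1 replicates 3, 4 and 5. Replicates 3 and 4 lay below the controls and replicate 5 above them. The log2 difference was therefore -0.07 with all libraries (SE 0.09, edgeR adjusted p = 0.767) and -0.17 without replicate 5 (adjusted p = 0.00244). Map1lc3a, Gabarap and Gabarapl2 had overlapping groups and log2 differences of -0.06, -0.07 and -0.04.

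**Figure D3:**
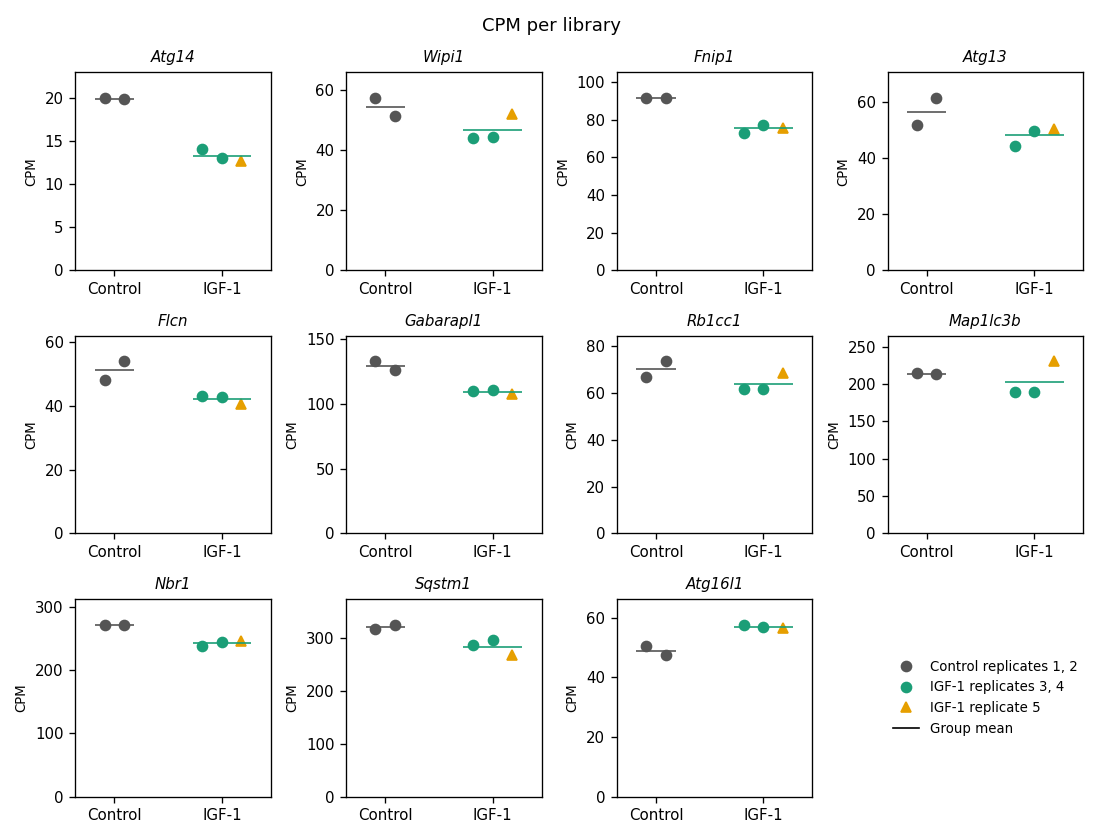
CPM in each library for the 11 genes that passed without IGF-1 replicate 5, with group means over all libraries as lines and each axis starting at 0. Replicate 5 (triangles) lies with replicates 3 and 4 for Atg14 and Gabarapl1, above the controls for Map1lc3b, and between the controls for Wipi1 and Rb1cc1.

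The 4 genes of the ULK complex, the kinase that starts autophagy, all had log2 differences below 0 (3 of 4 without IGF-1 replicate 3), and none passed with all libraries. Ulk1 was read at 76.1 and 75.8 CPM in the controls and 66.5, 75.2 and 78.3 CPM with IGF-1, and its groups overlapped (log2 -0.05, SE 0.08). Ulk2 stood at 80.3 and 83.2 CPM without and 75.9, 75.2 and 80.8 CPM with IGF-1 (log2 -0.08, SE 0.07). Neither kinase gene passed without replicate 5 either (edgeR adjusted p = 0.349 and 0.234). Atg13, the regulatory subunit gene, was read at 51.8 and 61.5 CPM in the controls and at 44.3, 49.7 and 50.7 CPM with IGF-1. The groups did not overlap, although the controls differed by more than the gap between the groups. Its log2 difference was -0.23 (SE 0.09, edgeR adjusted p = 0.352), or -0.27 without replicate 5 (adjusted p = 0.00801, or 0.133 by DESeq2). Rb1cc1, which encodes the scaffold FIP200, was read at 66.9 and 73.5 CPM in the controls and at 61.5, 61.8 and 68.3 CPM with IGF-1. Replicate 5 lay between the controls, and the log2 difference went from -0.14 (edgeR adjusted p = 0.507) to -0.19 without it (adjusted p = 0.0416, or 0.24 by DESeq2).

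WIPI proteins bind the lipid that VPS34 makes, and ATG9A carries membrane to the growing autophagosome. Wipi1 was read at 57.4 and 51.3 CPM in the controls and at 44.0, 44.5 and 52.2 CPM with IGF-1. Replicates 3 and 4 were below the controls, and replicate 5 lay between them. The log2 difference was -0.21 (SE 0.09, edgeR adjusted p = 0.394), and without replicate 5 it was -0.30 (adjusted p = 0.00226). Wipi2 stood at 133 and 130.0 CPM without and at 119, 128 and 119 CPM with IGF-1, below the controls in each library (log2 -0.11, SE 0.06, edgeR adjusted p = 0.503). Atg9a was at a log2 difference of 0.09 with overlapping groups.

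Among the genes of the conjugation systems that attach ATG12 and the ATG8 proteins, Atg16l1 stood highest. Its protein places ATG8 conjugation on the membrane. It was read at 50.4 and 47.6 CPM in the controls and at 57.7, 56.9 and 56.4 CPM with IGF-1. Each IGF-1 library exceeded both controls. The log2 difference of 0.22 (SE 0.07) did not pass with all libraries (edgeR adjusted p = 0.225) and passed without replicate 5 (0.23, adjusted p = 0.0208). DESeq2 did not call it in either case. Atg5, Atg7 and Atg12 had overlapping groups and log2 differences of 0.01, -0.03 and -0.07.

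The lysosomal genes gave no call in any fit that was run, and their standard errors with all libraries were 0.06 to 0.14 on the log2 scale. Lamp1, which encodes an abundant glycoprotein of the lysosomal membrane, was read at 448 and 445 CPM in the controls and at 443, 479 and 518 CPM with IGF-1. Psap, the precursor gene of the saposins that assist lipid hydrolases, was read at 512 and 484 CPM in the controls and at 490.3, 503 and 643 CPM with IGF-1. In both genes replicate 5 was the highest library. The log2 differences were 0.10 (SE 0.07, edgeR adjusted p = 0.603) for Lamp1 and 0.13 (SE 0.11, adjusted p = 0.656) for Psap, and 0.05 and -0.0040 without replicate 5. Grn, the progranulin gene, was at 0.13, or at 0.01 without that library.

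Of the protease genes, Ctsd (cathepsin D) was read at 122 and 124 CPM in the controls and at 117, 127 and 153 CPM with IGF-1. Ctsb (cathepsin B) was read at 194 and 185 CPM in the controls and at 193, 188 and 211 CPM with IGF-1. Their groups overlapped, with log2 differences of 0.10 (SE 0.10) and 0.06 (SE 0.07). The other 9 hydrolase genes lay between -0.34 and 0.04. The lowest of them was Gla, the gene of alpha-galactosidase A, which went from 16.8 ± 1.01 CPM (SD, n = 2) to 13.3 ± 1.88 (SD, n = 3) without overlap between the groups (edgeR adjusted p = 0.346). Ctsl (-0.13) and Asah1 (-0.06), the genes of cathepsin L and acid ceramidase, also had IGF-1 libraries that were all below the controls. Ctsa, Hexa, Gaa, Glb1, Neu1 and Tpp1 had overlapping groups.

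The V-ATPase genes and the remaining membrane genes were likewise not called. Atp6ap1, an accessory subunit gene, was read at 166 and 162 CPM in the controls and at 177, 174 and 168 CPM with IGF-1, all above the controls (log2 0.08, SE 0.06, edgeR adjusted p = 0.621). Atp6v0d1 was at -0.11 with all IGF-1 libraries below the controls, and Atp6v1a (-0.06) and Atp6v1h (0.01) had overlapping groups. Mcoln1, the gene of the lysosomal calcium channel TRPML1, was at -0.12 without overlap, and Lamp2 was at -0.01 with overlap.

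Counting all 46 genes, the IGF-1 libraries lay wholly below the controls for 13 and wholly above for 4, which is 28.3% and 8.7%, against 16.9% and 16.2% of all genes tested. Among the 13 were 5 lysosomal genes, 6 of the autophagy machinery, and Flcn and Fnip1. The 4 were Atp6ap1, Tfeb, Becn1 and Atg16l1. The median ratio to the control mean over the 21 autophagy genes was -0.14, -0.09 and -0.10 on the log2 scale in IGF-1 replicates 3, 4 and 5. Over the 20 lysosomal genes it was -0.04, -0.03 and 0.09, so only the lysosomal median changed sign in replicate 5. Over all genes tested these medians were -0.0054, -0.0069 and -0.013.

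**Figure D4:**
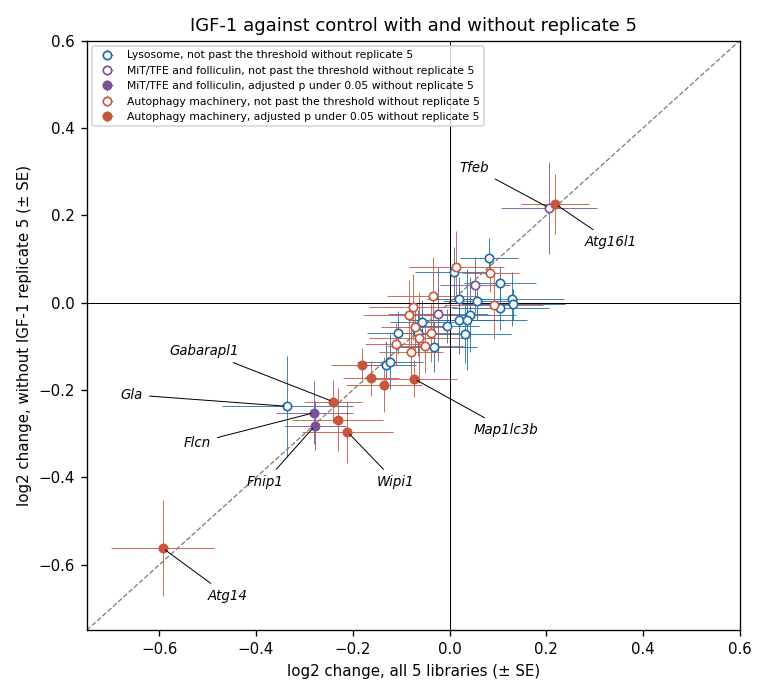
Fitted log2 change of IGF-1 against control with all 5 libraries (x axis) and without IGF-1 replicate 5 (y axis) for the 46 genes, with SE bars and a dashed line of equality. Atg14 is near -0.6 on both axes, Map1lc3b and Wipi1 lie below the line, and the lysosomal genes (open blue circles) gather around 0.

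Levels between genes were compared as CPM per kb of the longest principal transcript. On this scale Lamp1 (209 ± 14.4, SD over the 5 libraries) and Psap (198 ± 24.9) were the highest, and their ranges over libraries overlapped. Sqstm1 followed at 147 ± 11.4 CPM per kb, below every library of those. Among the ATG8 genes Gabarap stood at 94.1 ± 5.19 and Map1lc3b at 81.8 ± 6.99 CPM per kb, with overlapping ranges, above Gabarapl2 at 35.9 ± 1.97 and Map1lc3a at 17.4 ± 0.911. Gabarapl1 was at 64.5 ± 6.18 CPM per kb, or at 218 with its shortest principal transcript. Its place among them, and against Lamp1 and Psap, is therefore not settled by these counts. Of the transcription factor genes Tfe3 (18.8 ± 0.746 CPM per kb) exceeded Tfeb (8.34 ± 0.676) and Mitf (3.66 ± 0.142) in every library. Atg14, at 4.26 ± 0.996 CPM per kb, and Gla, at 4.65 ± 0.747, overlapped Mitf at the low end of the 46 genes.

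**Figure D5:**
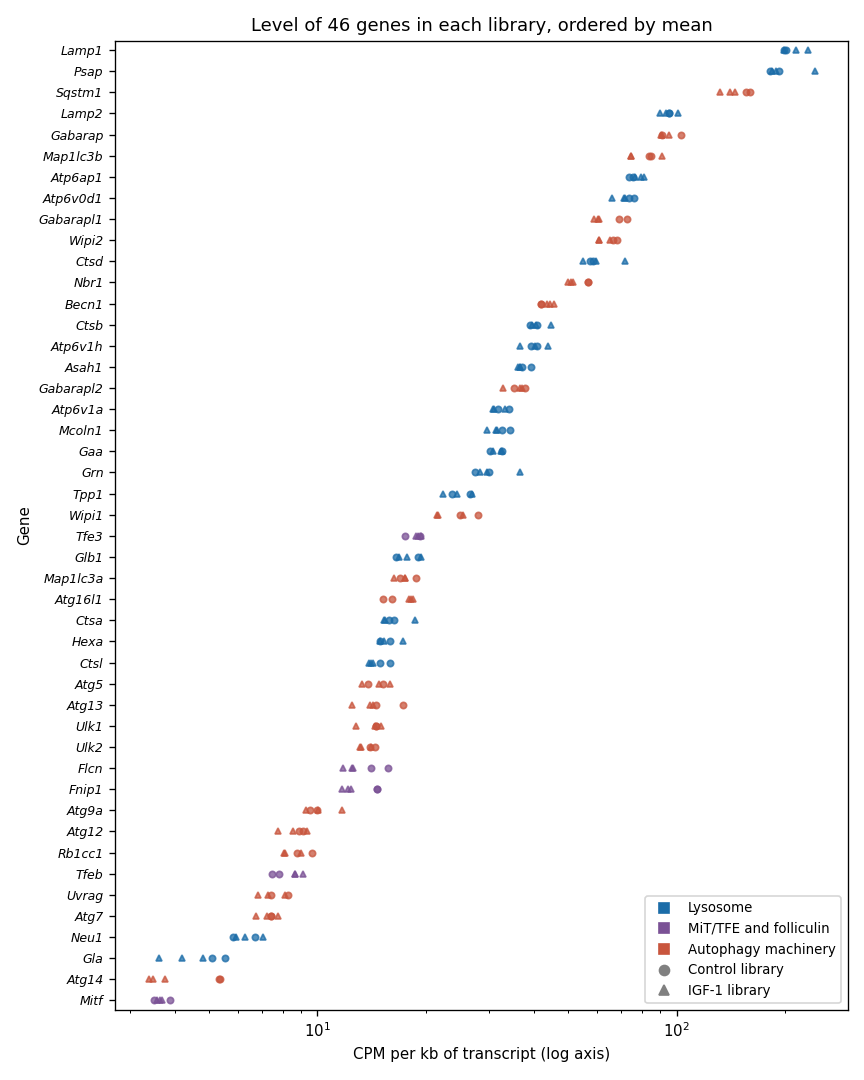
CPM per kb of transcript in each library for the 46 genes on a log axis, ordered by the mean over the 5 libraries. Lamp1 and Psap are at the top near 200 CPM per kb, and Atg14 and Mitf are at the bottom near 4.

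A further 134 genes of the lysosome and of autophagy were listed to set beside the 46. All were found by current or older symbol, and 131 were tested. With all libraries 0 were higher and 1 was lower, against 0.685% and 0.339% of all genes. DESeq2 gave 126 of them an adjusted p and called 0 higher and 1 lower, against 1.6% and 0.747%. At an unadjusted p under 0.05 by edgeR, 4 were higher and 5 lower, against 7.1% and 5.57% of all genes. The median log2 change of the 131 was -0.03. The gene that fell was Ctns, which encodes cystinosin, the lysosomal exporter of cystine. It was read at 29.7 and 30.0 CPM in the controls and at 21.5, 19.1 and 22.4 CPM with IGF-1. All IGF-1 libraries were below both controls, and Ctns fell by 0.51 on the log2 scale (SE 0.10, edgeR adjusted p = 0.048). Like that of Atg14, this call was lost when either control or IGF-1 replicate 3 or 4 was left out (adjusted p = 0.145 to 0.572, log2 -0.52 to -0.44). It was also lost with limma-voom (adjusted p = 0.0545) and with total counts in place of TMM factors (adjusted p = 0.0567), both at a log2 change of -0.51. Without replicate 5 it held (log2 -0.56, adjusted p = 5.73e-06).

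By list, 0 of 35 tested genes of other hydrolases and luminal proteins passed with all libraries, with a median log2 change of 0.0042 over the list and log2 changes of 0.15 and 0.04 for its most abundant members Gm2a and Ppt1. Ctns was the 1 of 25 among membrane proteins and sorting receptors. None passed among 15 other V-ATPase subunits (Atp6v0e at -0.08 and Atp6v1b2 at -0.01), 10 genes of RAG GTPases, Ragulator and FNIP2 (Fnip2 at 0.12 and Rragc at 0.07), or 23 genes of other autophagy machinery (Wdfy3 at 0.11 and Sh3glb1 at 0.14). None passed among 11 other receptors (Tax1bp1 at -0.06 and Sec62 at 0.11) or 12 genes of fusion with the lysosome (Rab7 and Vps41, both at -0.06). The share of genes below 0 was 45.7% for the hydrolases, 64% for the membrane and sorting list and 73.3% for the V-ATPase subunits. It was 60% for the RAG list, 65.2% for the autophagy machinery, 63.6% for the receptors and 75% for fusion, against 51.7% of all genes. At an unadjusted p under 0.05, the lists of V-ATPase subunits and of receptors each held 1 higher gene. The autophagy machinery and the membrane and sorting list (Ctns included) each held 1 higher and 2 lower, the hydrolases 1 lower, and the RAG and fusion lists 0. Of all genes, 7.1% were higher and 5.57% lower by that rule. Without replicate 5, 3 of 130 were higher and 5 lower (2.31% and 3.85%), against the background of 5.49% and 3.65%. Named after their values were seen, these were Atp6v0a2 (0.18), Nrbf2 (0.39), an ATG14 partner gene, and Tollip (0.20), and Bnip3l (-0.26), Calcoco1 (-0.23), Ctns, Trp53inp1 (-0.62) and Wdr45 (-0.46). DESeq2 without that library called the same 5 lower and none of the higher genes, among 124 that it gave an adjusted p. The background was 1.76% lower and 3.6% higher of the 10742 genes given one.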

How the data were processed

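The authors deposited 1 table of raw read counts by gene symbol for each library. The submitters' processing notes name cutadapt 3.4, STAR 2.7.9a, featureCounts 2.0.1, DESeq2 1.28.1 and build GRCm39. Strand setting and annotation are not given in the sources used here, so reads of overlapping genes, paralogs and pseudogenes may be shared.

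Groups came from the titles. Counts were tested with edgeR 4.0.16 in R 4.3.3 (filterByExpr with a minimum count of 10 and a minimum total of 15, TMM factors, quasi-likelihood F-test, two-sided, Benjamini-Hochberg adjustment over all genes tested, threshold 0.05). The SE is the log2 change divided by the square root of F. DESeq2 1.42.0 was run on the same filtered genes, and adjusted p-values it gives as missing stayed missing. Within each group, libraries differed beyond sampling noise (chi-square per degree of freedom 2.29 to 13.5), and all were kept. The procedure was tested on simulated data with changes larger than most of those described here. It therefore does not show how often smaller changes would be called.

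The members and lists were chosen with earlier results of these data known. Genes with values per library are those called with all libraries, without IGF-1 replicate 5 or by DESeq2, the most abundant of each role, and Tfeb, Tfe3, Mitf, Sqstm1, Ulk1, Gabarapl1, Lamp1 and Ctsd; of other lists, up to 4 called genes or else the 2 most abundant. Of the markers, Cx3cr1, Th and Cldn5 were not analysed here. Transcript lengths and exon overlaps came from GENCODE M21 and promoters from RefSeq, both on GRCm38, matched by symbol.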

Additional observations from a re-analysis of the deposited data

How the results depend on the processing

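Over all genes, 163 were called with all libraries, 280 by DESeq2, 606 with no filter on low counts, 2 to 1424 when 1 library was left out, and 576 by DESeq2 without IGF-1 replicate 5, an alternative added after seeing the data. Of the 46 genes, 1 was called with all libraries, 2 with no filter (Atg14 and Fnip1), 0 to 11 with 1 library left out and 6 by DESeq2 without replicate 5. The 0 arose by edgeR in each of the 4 fits that left out another library than replicate 5, with 0 to 1 higher and 4 to 6 lower unadjusted, where 3.28% to 6.52% and 2.45% to 5.09% of all genes stood. Of the other pathway genes, 1 was called with all libraries, 0 by limma-voom, 0 with total counts only, 2 with no filter, 0 to 8 with 1 library left out and 5 by DESeq2 without replicate 5. Fits with a single control take its variation to be that of the IGF-1 libraries.

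RLE factors changed no direction and no call of the 36 genes given values. Among these 36 genes, signs turned only where 1 library was left out, for genes that did not pass. Over these fits the log2 change ranged from -0.0040 to 0.21 for Psap, -0.013 to 0.12 for Tfe3, -0.094 to 0.053 for Mitf, -0.10 to 0.016 for Ulk1, -0.013 to 0.19 for Ctsd, -0.069 to 0.24 for Gm2a, -0.023 to 0.075 for Ppt1 and -0.049 to 0.029 for Atp6v1b2. Outside the 36, Ctsa, Hexa, Glb1, Neu1 and Atg9a also turned from above to below 0 without replicate 5, and Atg7 from below to above. DESeq2 without replicate 5 gave -0.0024 for Psap, -0.012 for Ctsd, -0.067 for Gm2a, -0.021 for Ppt1 and 0.031 for Atp6v1b2. The causes were not tested. No paired analysis was possible because the groups share no replicate numbers.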

Other observations

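IGF-1 replicate 5 was the highest of the 5 libraries for 11 of the 20 lysosomal genes (55%) and for 19 of the 35 other hydrolase and luminal genes (54.3%), against 28.1% of all genes tested. It was the highest for 4 of the 21 autophagy genes (19%), and the lowest for 8 (38.1%), against 29.3% of all genes. The 4 V-ATPase genes among the 20 differed from the rest, with replicate 5 the highest library for 0 and the lowest for 2. Of the other V-ATPase subunit genes, replicate 5 was the lowest library for 8 of 15 (53.3%), and of the RAG GTPase, Ragulator and FNIP2 genes for 7 of 10 (70%). Gm2a, which encodes the activator protein for ganglioside breakdown, went from 169 CPM in IGF-1 replicates 3 and 4 to 250.2 CPM in replicate 5. These counts were made after the values were seen and describe 1 library, and their part in the results above is given by the fits without it.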
